A study of Homo sapiens with 6 samples.

Results

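The 40 genes described here encode the machinery that brings proteins into mitochondria: the TOM channel of the outer membrane, the TIM22 and TIM23 channels of the inner membrane, the small TIM chaperones between them, the import motor, the SAM complex, the oxidative folding pathway of the intermembrane space and the presequence proteases. They were chosen by name, and all 40 were found by symbol among the 62710 rows of the gene table. All 40 passed the minimum mean value of 10 over the libraries, as did 16347 genes in all. The samples were parental H526 cells, an established small cell lung cancer line, and onvansertib-resistant H526 cells, which had been grown for over a year in the PLK1 inhibitor onvansertib raised from 10 to 75 nM. Each group had 3 libraries from RNA harvested at 3 separate times, numbered 1 to 3 in parental and 7 to 9 in resistant cells. Both groups were kept in RPMI-1640 with fetal bovine serum, and the resistant cells are a single derived line, so the 3 libraries of a group do not stand for separate selections and p-values measure the spread between these harvests.

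Nearly all mitochondrial proteins are made in the cytosol. Precursors with an N-terminal presequence pass TOM and then TIM23, are pulled into the matrix by an HSP70 motor and are trimmed by proteases. Carrier proteins of the inner membrane are shielded by small TIM chaperones and inserted by TIM22, barrel proteins of the outer membrane are inserted by SAM, and small cysteine-rich proteins are trapped between the membranes by the CHCHD4 and GFER relay.

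The values are gene counts normalized by the authors with DESeq2, given per gene and library as a signal that is never negative and need not be whole. The value of 1 read gave a depth between 25779906 and 28510615 reads in parental and between 22390983 and 23256309 in resistant libraries. Differences are given as log2 fold changes of the value plus 1, with positive values higher in resistant cells, and were tested with limma across all genes, with Benjamini-Hochberg adjustment and a threshold of 0.05. Of the markers checked, *POU2F3*, the factor of the tuft-like subtype, was at 25809 ± 1178 in parental and 27273 ± 535 in resistant cells (SD, n = 3), while *NEUROD1*, a neuroendocrine factor, was at or under the value of 3 reads in 5 of 6 libraries. *YAP1*, another subtype factor, was low but higher in resistant cells, at 48.9 ± 6.86 in parental and 111 ± 16.1 in resistant cells (SD, n = 3), a difference of 1.17 in log2 (SE 0.22, limma adjusted p = 0.00236). Of 6 neuroendocrine markers 5 were tested and all 5 were lower in resistant cells, and of 7 tuft-like markers 4 were higher and 2 lower. The leukocyte markers *PTPRC*, *CD3E* and *CD68* were at or under the value of 3 reads in every library, as were *DCN*, *PECAM1* and *CDH5*, while *COL1A1*, *COL1A2* and *VWF* rose and *COL3A1*, with -0.73 in log2 (limma adjusted p = 0.247), was not called. The part of these shifts in the results was not tested.

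Import genes fell more often than they rose in resistant cells. Of the 40 genes, 17 were lower, 1 was higher and 22 did not pass the test. Of all genes tested, 37.7% were called in either direction, 19.8% as lower and 17.8% as higher. The share of import genes called in either direction, 45.0%, was thus close to that of all genes, and to the 43.3% of the 9728 genes with a mean at least that of the lowest import gene. The share called lower, 42.5%, stood beside 25.8% at those levels. The median log2 fold change over the 40 genes was -0.16, against -0.00086 over all genes tested and -0.05 over genes at the levels of the import genes, and 32 of 40 were below 0, as were 50.1% of all genes tested and 56.7% at those levels. With quantile normalization 14 were lower and 1 higher, with a median of -0.12. The groups did not overlap for 21 of the 40 genes, 20 of them lower and 1 higher in resistant cells, where 49.9% of all genes tested did not overlap, 25.9% lower and 24.0% higher, and 54.4% at the levels of the import genes, where 32.4% were apart and lower. The share of non-overlapping import genes is thus near the background, and only its split by direction is not. The changes were small: the called genes had resistant means between 61.5% and 86.9% of the parental mean, apart from *TIMM9* at 137%.

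**Figure D1:**
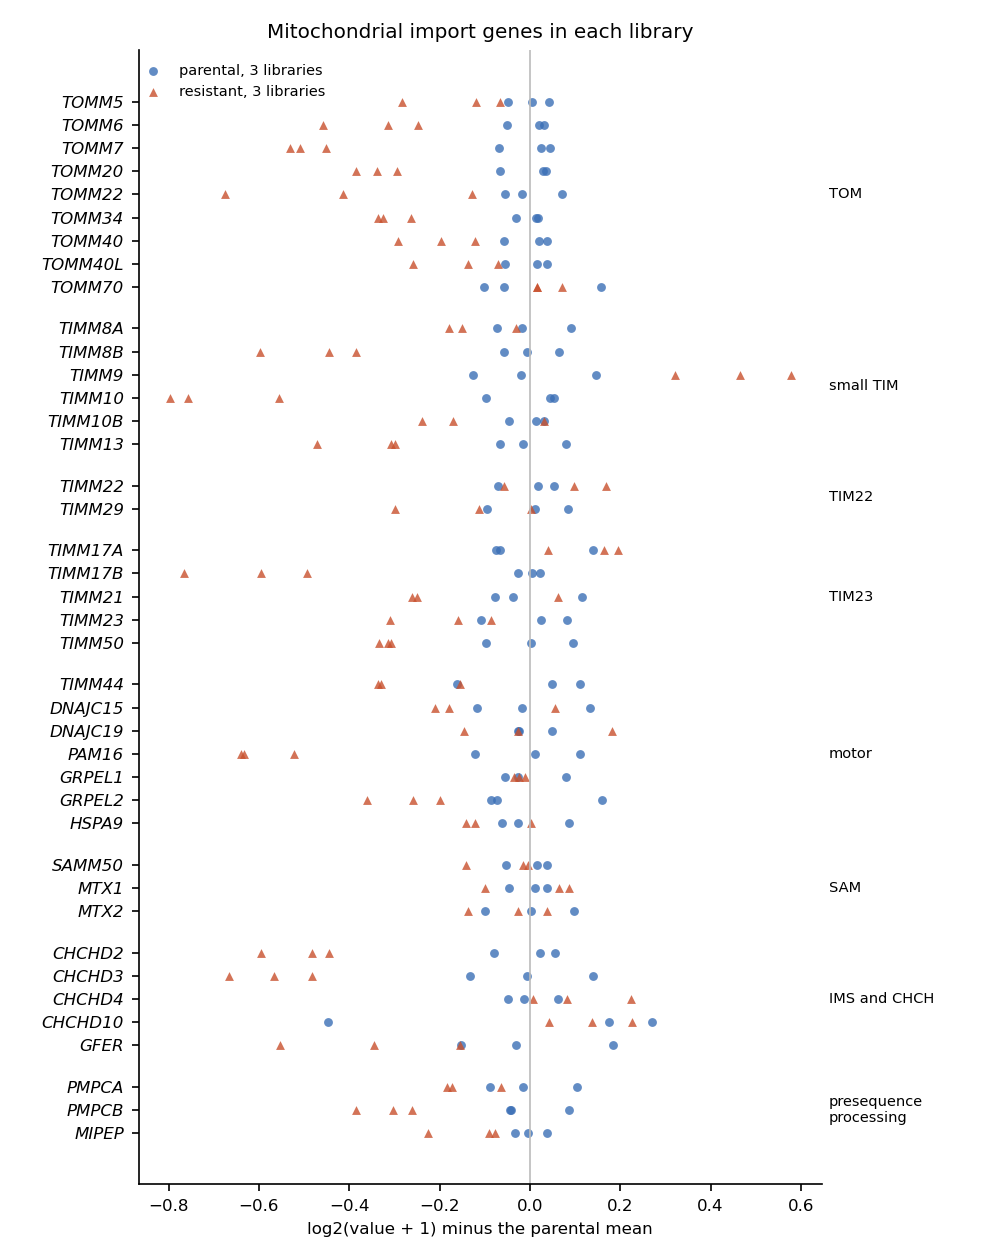
Value of each of the 40 import genes in each library, as log2(value + 1) minus the mean of the 3 parental libraries, with parental libraries as circles and resistant libraries as triangles and genes grouped by role. The triangles of 20 genes lie left of all their circles, and those of *TIMM9* alone lie right of them.

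The summed value of the 40 genes was 86684, 84406 and 86261 in parental libraries 1, 2 and 3 and 74675, 69324 and 73216 in resistant libraries 7, 8 and 9. Resistant library 8 held the lowest resistant value for 25 of the 40 genes. Without it 14 genes were lower and 1 higher, with a median log2 fold change of -0.12. Across the roles, resistant values summed to 72.1% of parental ones for the intermembrane space and CHCH genes, 80.7% for the small TIMs, 81.5% for TIM23, 85.3% for the presequence proteases, 86.0% for TOM, 91.4% for the motor, 98.6% for TIM22 and 99.4% for SAM. These sums weigh the most abundant genes most and carry no test. The summed value of all genes was itself lower in each resistant library than in any parental one. As a share of that library total, the 40 genes stood at 88.3% of parental and the motor at 95.6%. By that measure TIM22 stood at 103% and SAM at 104%, and the other roles stayed below parental.

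Of the 9 genes of the TOM group, 6 had lower mRNA, none was higher, and the median was -0.31. The 6 include *TOMM34*, which is a cytosolic cochaperone and not a subunit of the channel. *TOMM40* (ENSG00000130204), the barrel that forms the pore, had values of 5506, 5887 and 5808 in parental and 5003, 4678 and 5268 in resistant libraries. The groups did not overlap, and the difference was -0.20 in log2 (SE 0.07, limma adjusted p = 0.0322). This call was narrow. It was lost without the filter on low values, with quantile normalization and without the trend (adjusted p = 0.0545, 0.082 and 0.102 by limma), and when parental library 2 or 3 or resistant library 7 or 8 was left out (adjusted p = 0.0859, 0.101, 0.0736 and 0.115 by limma). Its 4 pseudogenes together had values of 6.1% of the parental *TOMM40* mean and 6.0% of the resistant one, so that some reads may be divided between copies.

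*TOMM20* (ENSG00000173726, chromosome 1, 235109341 to 235128837 of GRCh38), the receptor for presequences, was at 4230.4, 4211 and 3939.5 in parental and 3161, 3363 and 3264 in resistant libraries. Every resistant library lay below every parental one, with a difference of -0.34 in log2 (SE 0.06, limma adjusted p = 0.00192). *TOMM70*, the receptor for carrier precursors, was at 4327, 3617 and 3731 in parental and 4077, 3922 and 3924 in resistant libraries, and the resistant values lay inside the parental range. Its log2 fold change was 0.03, with a 95% confidence interval of -0.13 to 0.20 (limma adjusted p = 0.755). Without parental library 2 its sign turned, to -0.0159.

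Promoters of these receptors, chosen after their values were seen, are shown because both belong to the same complex while only *TOMM20* was called. They are the 250 bases before the RefSeq start in GRCh38.p14, on the minus strand at chr1:235128838-235129087 and chr3:100401090-100401339, and neither touches an annotated exon. Capitals mark the ETS core CCGGAAG on either strand, the kind of site bound by GABPA, and the E-box CACGTG.
TOMM20: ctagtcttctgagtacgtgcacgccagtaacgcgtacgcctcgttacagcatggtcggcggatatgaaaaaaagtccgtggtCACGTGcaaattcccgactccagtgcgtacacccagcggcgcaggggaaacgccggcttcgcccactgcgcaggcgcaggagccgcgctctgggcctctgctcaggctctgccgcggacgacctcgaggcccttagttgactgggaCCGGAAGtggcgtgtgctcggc
TOMM70: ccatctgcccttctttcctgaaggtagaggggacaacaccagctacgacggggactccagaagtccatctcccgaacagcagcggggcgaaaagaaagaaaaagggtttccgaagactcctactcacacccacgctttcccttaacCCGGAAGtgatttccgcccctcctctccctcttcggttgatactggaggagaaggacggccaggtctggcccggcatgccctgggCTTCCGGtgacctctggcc
The ETS core was found once before *TOMM20* and 2 times before *TOMM70*, and the E-box once before *TOMM20*. Over the 37 import genes with a promoter in the table, 13 (35.1%) held the ETS core, against 15.4% of 11644 promoters of genes tested and 8.82% of all 27305 promoters of that length. Among them were 7 of the 16 genes called lower and 6 of the 21 others. The NRF1 core GCATGCGC was in 4 of 37 (10.8%), against 4.73% of the promoters of genes tested, namely 2 of the 16 genes called lower (*TOMM7* and *PAM16*) and 2 of the 21 others (*TIMM9*, the gene called higher, and *CHCHD4*). The E-box was in 3 of 37 (8.11% against 8.93%), and AAGATGGCG, the YY1 core, was in 1 of 37 (2.7% against 1.08%). These are matches of letters and not measured binding.

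*TOMM22*, which organizes the receptors around the pore, was at 1469.8, 1346 and 1381 in parental and 1279.7, 875 and 1049 in resistant libraries. The resistant libraries were spread widely, with library 8 lowest, and the difference was -0.41 in log2 (SE 0.12, limma adjusted p = 0.0261). The call was lost without parental library 1 or 3, without resistant library 8 or 9 and without the trend (adjusted p = 0.0815, 0.0643, 0.0849, 0.06 and 0.0902 by limma). Without library 8 the log2 fold change was -0.27. *TOMM34*, a cytosolic cochaperone that delivers precursors, was at 2728, 2638 and 2723 in parental and 2248, 2136 and 2152 in resistant libraries, with no overlap and a difference of -0.31 in log2 (SE 0.06, limma adjusted p = 0.00345).

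The small subunits that stabilize the TOM complex did not all pass. *TOMM7* had values of 799.6, 789 and 739.6 in parental and 536, 545 and 567 in resistant libraries, the largest fall within TOM, with a difference of -0.50 in log2 (SE 0.09, limma adjusted p = 0.00152). *TOMM6* was at 1968, 2084 and 2067 in parental and 1718, 1485 and 1639 in resistant libraries, with a difference of -0.34 in log2 (SE 0.08, limma adjusted p = 0.00593). All of its exon bases also belong to a read-through gene, ENSG00000124593, with values between 246 and 321, so its share of reads is uncertain. *TOMM5* was at 1578 ± 49.9 in parental and 1418 ± 109 in resistant cells (SD, n = 3), with a difference of -0.16 in log2 (SE 0.08, limma adjusted p = 0.149). The groups of *TOMM5* did not overlap, as was also so for *TOMM40L*, a paralog of the pore, with -0.15 (95% confidence interval -0.32 to 0.01, limma adjusted p = 0.132).

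**Figure D2:**
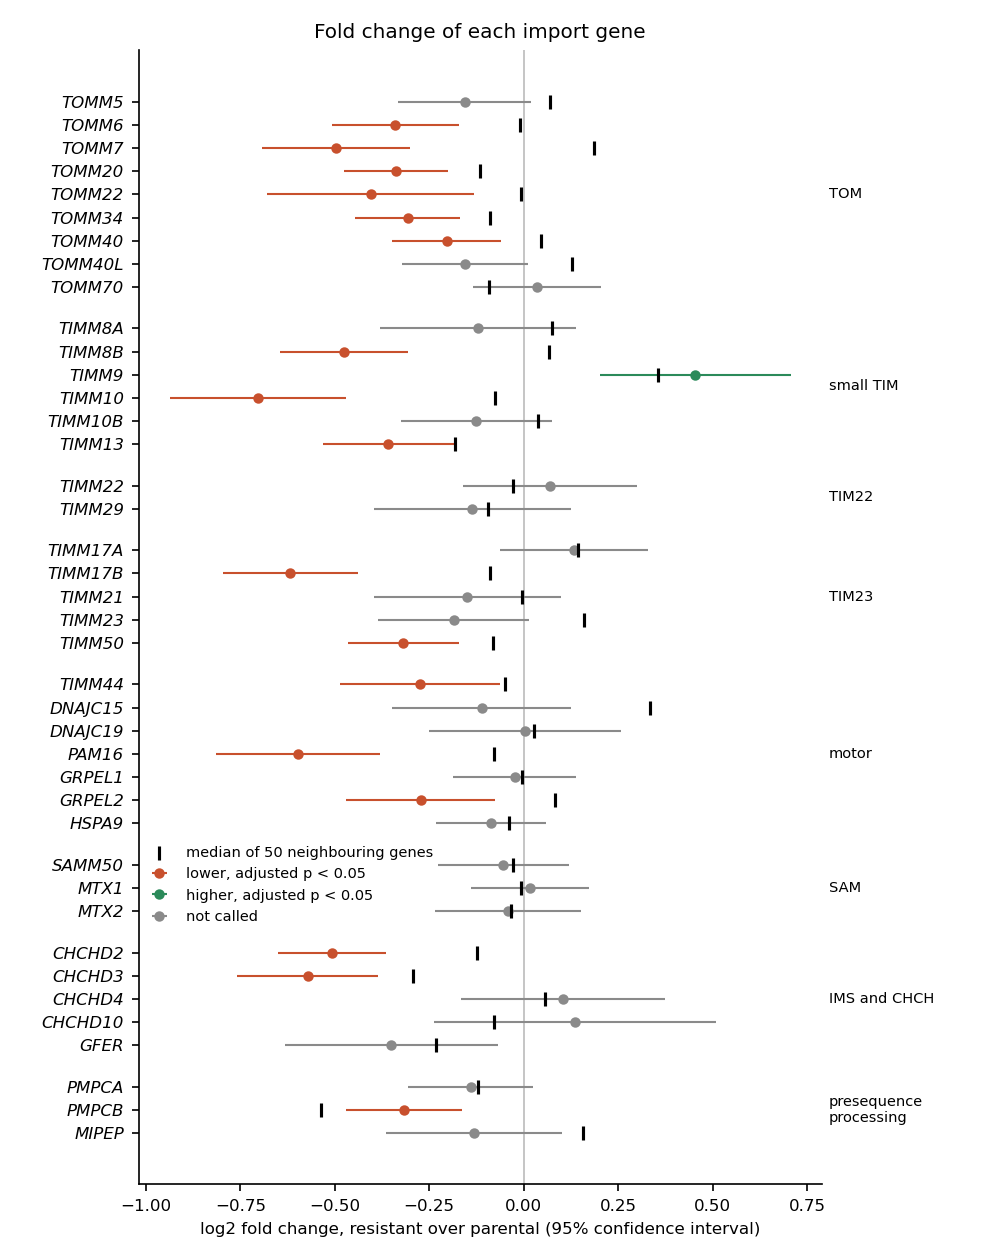
Log2 fold change of each import gene, resistant over parental, with its 95% confidence interval from limma, coloured by call, and a black bar for the median log2 fold change of the 50 nearest tested genes on the chromosome. The 17 lower genes lie between -0.70 and -0.20, and *TIMM9*, at 0.45, lies near the median of its neighbours.

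The small TIM chaperones moved apart. Of 6 genes, 3 were lower, 1 was higher and 2 were not called. *TIMM10* (ENSG00000134809, chromosome 11, 57528464 to 57530803), which forms a ring with *TIMM9* that carries membrane proteins across the intermembrane space, had values of 720.4, 653 and 726 in parental and 475, 402 and 413 in resistant libraries. It had the lowest log2 fold change of the 40 genes, -0.70 in log2 (SE 0.11, limma adjusted p = 0.000567). Its partner *TIMM9* (ENSG00000100575, chromosome 14, 58408495 to 58427531) was at 438, 492 and 407 in parental and 613, 663 and 556 in resistant libraries. Every resistant library was above every parental one, and the difference was 0.45 in log2 (SE 0.11, limma adjusted p = 0.0103). The log2 ratio of *TIMM9* to *TIMM10* was -0.72, -0.41 and -0.83 in parental and 0.37, 0.72 and 0.43 in resistant libraries. It rose by 1.16 on average, and the ratio per kb of transcript went from 0.34 to 0.76.

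*TIMM9* lies in a stretch of chromosome 14 whose genes were mostly higher. The 50 tested genes nearest to it, from 54423561 to 62112550, had a median log2 fold change of 0.36, which left 0.10 for *TIMM9* relative to them, and their part in its call was not tested. *KIAA0586*, which starts beside it on the opposite strand and shares 140 exon bases (9.9% of the exon bases of *TIMM9*), had values of 1094, 1078 and 959 in parental and 1763, 1473 and 1284 in resistant libraries. The kit is not stated to keep strand, so reads in the shared bases cannot be assigned to one of them. The neighbours of *TIMM10* had a median of -0.08.

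*TIMM8B* and *TIMM13* also fell. *TIMM13*, which pairs with *TIMM8A* in the second chaperone ring, was at 2095, 1894 and 1962 in parental and 1602, 1429 and 1612 in resistant libraries, with a difference of -0.36 in log2 (SE 0.08, limma adjusted p = 0.00497). *TIMM8B*, a paralog of *TIMM8A*, was at 2468, 2555 and 2686 in parental and 1965, 1696 and 1885 in resistant libraries, with a difference of -0.48 in log2 (SE 0.08, limma adjusted p = 0.000844). It shares 351 exon bases (30.1%) with *NKAPD1* on the opposite strand. *TIMM8A*, with far lower values, was at 327 ± 19.1 in parental and 301 ± 16.7 in resistant cells (SD, n = 3), and its log2 fold change was -0.12 (95% confidence interval -0.38 to 0.14, limma adjusted p = 0.451). *TIMM10B*, which docks the chaperones at TIM22, had a log2 fold change of -0.13 (limma adjusted p = 0.301) and overlapping groups.

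The carrier insertase was not called. *TIMM22*, its pore, was at 497, 468 and 510.0 in parental and 552, 525.7 and 472 in resistant libraries, with a log2 fold change of 0.07 and a 95% confidence interval of -0.16 to 0.30 (limma adjusted p = 0.633). *TIMM29*, a subunit of the same complex found in animals, was at 436 ± 27.4 in parental and 397 ± 41.6 in resistant cells (SD, n = 3) and had a log2 fold change of -0.14 (95% confidence interval -0.40 to 0.13, limma adjusted p = 0.395). The groups of both genes overlapped.

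In the presequence translocase the paralogs of one subunit differed. *TIMM17B* (ENSG00000126768, chromosome X, 48893447 to 48898143), which with *TIMM23* lines the inner membrane channel, was at 2452, 2482 and 2401 in parental and 1618, 1438 and 1736 in resistant libraries. The values of the groups stood far apart, and the difference was -0.62 in log2 (SE 0.08, limma adjusted p = 0.00024). Its paralog *TIMM17A*, the form known to respond to stress, was at 1213, 1051 and 1045 in parental and 1259, 1131 and 1233 in resistant libraries, with overlapping groups and a log2 fold change of 0.13 (95% confidence interval -0.06 to 0.33, limma adjusted p = 0.267). The log2 ratio of *TIMM17A* to *TIMM17B* was -1.01, -1.24 and -1.20 in parental and -0.36, -0.35 and -0.49 in resistant libraries, a rise of 0.75. Per kb of transcript, *TIMM17A* stood at 0.22 of *TIMM17B* in parental and 0.37 in resistant cells. *PQBP1*, which shares 402 exon bases (15.5%) with *TIMM17B* on the opposite strand, was also lower in every resistant library, between 1295 and 1508 against 1766 to 2003.

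*TIMM50*, the receptor that hands presequences to the channel, was at 4201, 3923 and 4482 in parental and 3373, 3328 and 3389 in resistant libraries, and its difference was -0.32 in log2 (SE 0.07, limma adjusted p = 0.00393). *TIMM23*, the channel itself, was at 1185 ± 79.8 in parental and 1042 ± 81.7 in resistant cells (SD, n = 3), a log2 fold change of -0.19 that did not pass (95% confidence interval -0.39 to 0.01, limma adjusted p = 0.132). *TIMM23B* is a near copy of it, so the reads of both may be divided with error, and *TIMM23B* was at 134 ± 7.61 in parental and 128 ± 7.91 in resistant cells (SD, n = 3). *TIMM21*, which connects the translocase to the respiratory chain, had a log2 fold change of -0.15 (limma adjusted p = 0.32).

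Of the 7 genes of the import motor 3 were lower and none was higher. *HSPA9*, the matrix HSP70 that pulls precursors in, was the motor gene with the highest value, at 11682, 10544 and 10801 in parental and 11020.4, 10107 and 9965 in resistant libraries. The groups overlapped, and the log2 fold change was -0.09, with a 95% confidence interval of -0.23 to 0.06 (limma adjusted p = 0.324), and 0.0538 with quantile normalization. *PAM16* (ENSG00000217930, chromosome 16, 4331549 to 4355607), which restrains the J proteins of the motor, was at 711, 780.4 and 837 in parental and 539, 499 and 497 in resistant libraries. No resistant library reached the parental range, and the difference was -0.60 in log2 (SE 0.10, limma adjusted p = 0.00097). The read-through gene *CORO7-PAM16* shares 522 of its exon bases and had values of at most 12.8 in any library.

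The promoter of *PAM16*, the motor gene with the lowest log2 fold change, is shown with its NRF1 core in capitals. The promoters of *TOMM7*, *TIMM9* and *CHCHD4* also hold this core. The window of *PAM16* spans chr16:4351322-4351571 on the minus strand of GRCh38.p14, and lies inside the longer Gencode span of the gene without touching an exon.
PAM16: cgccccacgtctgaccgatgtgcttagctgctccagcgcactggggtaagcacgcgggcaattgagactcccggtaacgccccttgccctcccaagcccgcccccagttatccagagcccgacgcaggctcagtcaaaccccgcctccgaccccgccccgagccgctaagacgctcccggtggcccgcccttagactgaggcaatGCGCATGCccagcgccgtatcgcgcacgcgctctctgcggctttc

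*TIMM44*, which tethers *HSPA9* to the channel, was at 1117, 1292 and 1349 in parental and 1121, 989 and 994 in resistant libraries. Parental library 1 lay below resistant library 7, so that the groups overlapped, and the difference was -0.27 in log2 (SE 0.10, limma adjusted p = 0.0449). *GRPEL2*, a nucleotide exchange factor for *HSPA9*, was at 1481, 1493 and 1754 in parental and 1314, 1367 and 1222 in resistant libraries, with a difference of -0.27 in log2 (SE 0.09, limma adjusted p = 0.0341). Both calls were narrow. They were lost without the trend (adjusted p = 0.1 and 0.0871 by limma), without a filter (0.065 and 0.0501) and with quantile normalization (0.0919 and 0.0735). The call of *TIMM44* was also lost without parental library 2 or 3 or resistant library 8 or 9 (adjusted p = 0.11, 0.161, 0.131 and 0.12 by limma), and that of *GRPEL2* without parental library 3 or resistant library 7 or 9 (0.138, 0.0702 and 0.109). *GRPEL1*, the paralog that serves as the main exchange factor, was at 1321 ± 66.3 in parental and 1299 ± 11.6 in resistant cells (SD, n = 3), a log2 difference of -0.02 (95% confidence interval -0.19 to 0.14, limma adjusted p = 0.83). The sign of this value turned with quantile normalization, to 0.0257, and without parental library 1, to 0.0172.

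The J proteins *DNAJC15* and *DNAJC19*, which stimulate *HSPA9*, had log2 fold changes of -0.11 and 0.0035, with 95% confidence intervals of -0.35 to 0.13 and -0.25 to 0.26, and overlapping groups (limma adjusted p = 0.446 and 0.983). The value of *DNAJC19* turned to -0.0855 without resistant library 9. *DNAJC15* lies among genes of chromosome 13 with a median of 0.33, and stood 0.44 below them.

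None of the 3 genes of the SAM complex was called. *SAMM50*, the barrel that inserts other barrels, was at 1175, 1120.0 and 1193 in parental and 1159, 1053 and 1149 in resistant libraries. Its log2 fold change was -0.05 with a 95% confidence interval of -0.23 to 0.12 (limma adjusted p = 0.62). *MTX1* and *MTX2*, its metaxin partners, had log2 fold changes of 0.02 and -0.04 (95% confidence intervals -0.14 to 0.17 and -0.24 to 0.15, limma adjusted p = 0.867 and 0.739). The sign of both values depended on single libraries, and that of *MTX2* also turned with quantile normalization, to 0.00439. Of the barrel proteins that SAM inserts, *VDAC1* rose, at 4022 ± 173 in parental and 5365 ± 274 in resistant cells (SD, n = 3), with a difference of 0.42 in log2 (SE 0.06, limma adjusted p = 0.00074), while *VDAC2* and *VDAC3* had log2 fold changes of -0.02 and -0.07 and were not called.

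In the intermembrane space the import gene with the highest level per length fell. *CHCHD2* (ENSG00000106153, chromosome 7, 56101573 to 56106476), a small protein with paired cysteines, was at 10649, 11426 and 11696 in parental and 8056, 7442 and 8261 in resistant libraries. The groups stood well apart, and the difference was -0.51 in log2 (SE 0.06, limma adjusted p = 0.000212). Per kb of transcript it was also the highest of the 40 genes in both groups, at 14124 ± 683 in parental and 9937 ± 535 in resistant cells (SD, n = 3), against 3609 ± 111 and 2856 ± 210 for *TOMM6*, the next in order. Its paralog *CHCHD10* was at 436, 717 and 671 in parental and 612, 695 and 653 in resistant libraries. Parental library 1 stood apart from the other parental libraries, and the log2 fold change was 0.13 (95% confidence interval -0.24 to 0.51, limma adjusted p = 0.563), and -0.0881 without that library. The log2 ratio of *CHCHD2* to *CHCHD10* was 4.61, 3.99 and 4.12 in parental and 3.72, 3.42 and 3.66 in resistant libraries, so that it fell by 0.64 on average.

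The promoters of this pair are shown because the paralogs differed in both level and call. They lie on the minus strand at chr7:56106477-56106726 and chr22:23767973-23768222 of GRCh38.p14, outside annotated exons, with the ETS core in capitals.
CHCHD2: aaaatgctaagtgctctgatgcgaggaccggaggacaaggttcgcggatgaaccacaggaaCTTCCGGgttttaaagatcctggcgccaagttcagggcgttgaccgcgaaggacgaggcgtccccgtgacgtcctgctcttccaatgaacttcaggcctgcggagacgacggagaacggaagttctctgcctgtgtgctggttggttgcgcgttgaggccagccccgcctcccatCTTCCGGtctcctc
CHCHD10: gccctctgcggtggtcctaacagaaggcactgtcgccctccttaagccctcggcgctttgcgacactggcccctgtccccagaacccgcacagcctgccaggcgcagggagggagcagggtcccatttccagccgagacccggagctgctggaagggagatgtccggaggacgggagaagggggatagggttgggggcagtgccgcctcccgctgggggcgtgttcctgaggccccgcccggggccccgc
The window of *CHCHD2* holds the ETS core 2 times, and that of *CHCHD10* holds none of the motifs searched.

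*CHCHD3*, which joins SAM to the cristae-shaping MICOS complex, was at 3554, 2939.8 and 3208 in parental and 2308, 2033 and 2176 in resistant libraries, with a difference of -0.57 in log2 (SE 0.08, limma adjusted p = 0.000508). Its neighbours on chromosome 7 had a median of -0.29. Of 6 further MICOS genes 4 were also lower and none was higher, where 19.8% of all genes tested were lower. The MICOS genes were led by *CHCHD6*, at 597 ± 71.3 in parental and 392 ± 16.9 in resistant cells (SD, n = 3). The oxidative relay was not called. *CHCHD4*, the oxidoreductase that traps its clients, had the lowest mean of the 40 genes and was at 278 ± 10.96 in parental and 299.8 ± 23.2 in resistant cells (SD, n = 3), a log2 difference of 0.10 (95% confidence interval -0.17 to 0.37, limma adjusted p = 0.532). *GFER*, which reoxidizes *CHCHD4*, was at 675, 734 and 853 in parental and 674, 511 and 591 in resistant libraries. The groups were separated by a narrow gap, and the difference was -0.35 in log2 (SE 0.13, limma adjusted p = 0.0513). It passed without parental library 1 or resistant library 7 and with a minimum mean of 50 (adjusted p = 0.0405, 0.0288 and 0.0468 by limma), and with a pseudocount of 10.

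Of the proteases that trim presequences, 1 of 3 was called. *PMPCB*, the catalytic subunit of the matrix processing peptidase, was at 3096, 2830.4 and 2826 in parental and 2431, 2232 and 2363 in resistant libraries, with a difference of -0.32 in log2 (SE 0.07, limma adjusted p = 0.00511). Its 50 neighbours, from 100888721 to 105876599 on chromosome 7, had a lower median, -0.54, and 86.0% of them had a log2 fold change below 0. The part of this stretch in the call was not tested. *DNAJC2* and *PSMC2*, which share exon bases with it, were lower in every resistant library as well. *PMPCA*, the other subunit, was at 2209.5, 2399.8 and 2102 in parental and 1967, 1982 and 2136 in resistant libraries, with a log2 fold change of -0.14 (95% confidence interval -0.31 to 0.03, limma adjusted p = 0.167). *MIPEP*, which removes a further octapeptide, was at 422 ± 10.5 in parental and 386 ± 21.8 in resistant cells (SD, n = 3), a log2 difference of -0.13 (limma adjusted p = 0.354).

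Ratios within 9 pairs of import genes were compared over the 6 libraries with an exact two-sided permutation test, whose smallest possible p with 3 libraries against 3 is 0.10. For 5 pairs the groups did not overlap and p was 0.10, or 0.18 after Benjamini-Hochberg adjustment over the 9 pairs, so none could pass. Beside the 3 pairs above these were *TIMM8A* to *TIMM8B*, with a rise in the log2 ratio of 0.36, and *GRPEL1* to *GRPEL2*, with a rise of 0.25, which was 0.16 without parental library 3. The subunits of the processing peptidase, *PMPCA* to *PMPCB*, differed by 0.18 (exact permutation p = 0.20), *DNAJC15* to *DNAJC19* by -0.11 (exact permutation p = 0.30), *TOMM40* to *TOMM40L* by -0.05 (exact permutation p = 0.50) and *MTX1* to *MTX2* by 0.06 (exact permutation p = 0.60).

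**Figure D3:**
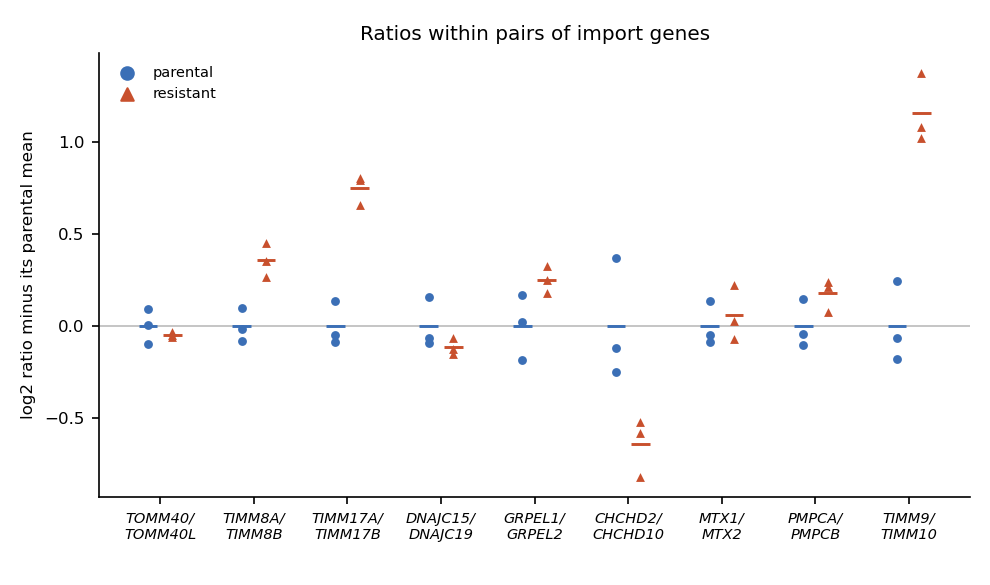
Log2 ratio of the values of 2 import genes in each library, minus the mean of the 3 parental libraries, for 9 pairs, with parental libraries as circles, resistant libraries as triangles and means as bars. The largest shifts are those of *TIMM9* to *TIMM10* (1.16), *TIMM17A* to *TIMM17B* (0.75) and *CHCHD2* to *CHCHD10* (-0.64).

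Transcript length moved with the differences. The canonical transcripts of the 40 genes ran from 434 to 7459 bases, with a median of 1678 against 3405 for the 13532 protein-coding genes tested. Of the 9 import genes with a transcript of up to 1000 bases, 7 were lower and none was higher, with a median log2 fold change of -0.50. Over all 751 coding genes of that length tested, 39.4% were lower and 9.05% higher, with a median of -0.22. Of the 31 longer import genes 10 were lower and 1 was higher, with a median of -0.14, where 21.3% of 12781 longer coding genes were lower and 18.8% higher, with a median of -0.01. The deviation of the short coding genes from the mean of the 6 libraries had medians between 0.09 and 0.14 in parental libraries and of -0.07, -0.19 and -0.06 in resistant libraries 7, 8 and 9. Transcript length therefore moved with the groups across all coding genes, and its part in the result was not tested. Relative to the median of coding genes in the same length class, 28 of the 40 import genes were lower, with a median difference of -0.10.

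**Figure D4:**
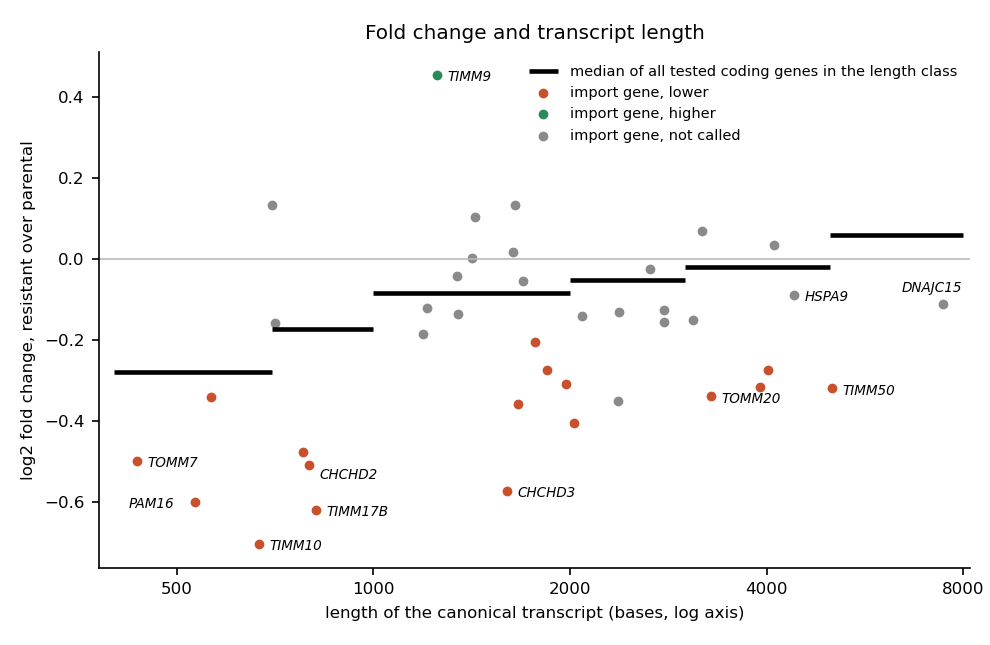
Log2 fold change of each import gene, resistant over parental, against the length of its canonical transcript on a log axis, coloured by call. Black bars give the median of all tested coding genes in 6 length classes, from -0.28 for the shortest class to 0.06 for the longest.

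Neighbouring genes moved with a few import genes. Relative to their 50 nearest tested neighbours, 33 of the 40 genes were lower, with a median difference of -0.21. Among the called genes, *TIMM9* and *PMPCB*, described above, had the neighbours with the highest and the lowest median.

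Levels per length ranged widely. After *CHCHD2* and *TOMM6*, the highest parental values per kb of transcript were those of *TIMM8B* at 3294 ± 141, *TOMM40* at 3243 ± 114 and *TIMM17B* at 2989 ± 49.9 (SD, n = 3). *TIMM8B* and *TOMM40* did not differ beyond their spread. The lowest were *DNAJC15* at 101 ± 8.90, *TIMM22* at 155 ± 6.81 and *MIPEP* at 177 ± 4.43 (SD, n = 3). In resistant cells *TIMM10* went from rank 16 to 23 of 40 and *TIMM17A* from 26 to 20, while *CHCHD2*, *TOMM6* and *DNAJC15* kept their ranks. The canonical transcript may not be the one expressed, as for the long transcript listed for *DNAJC15*.

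**Figure D5:**
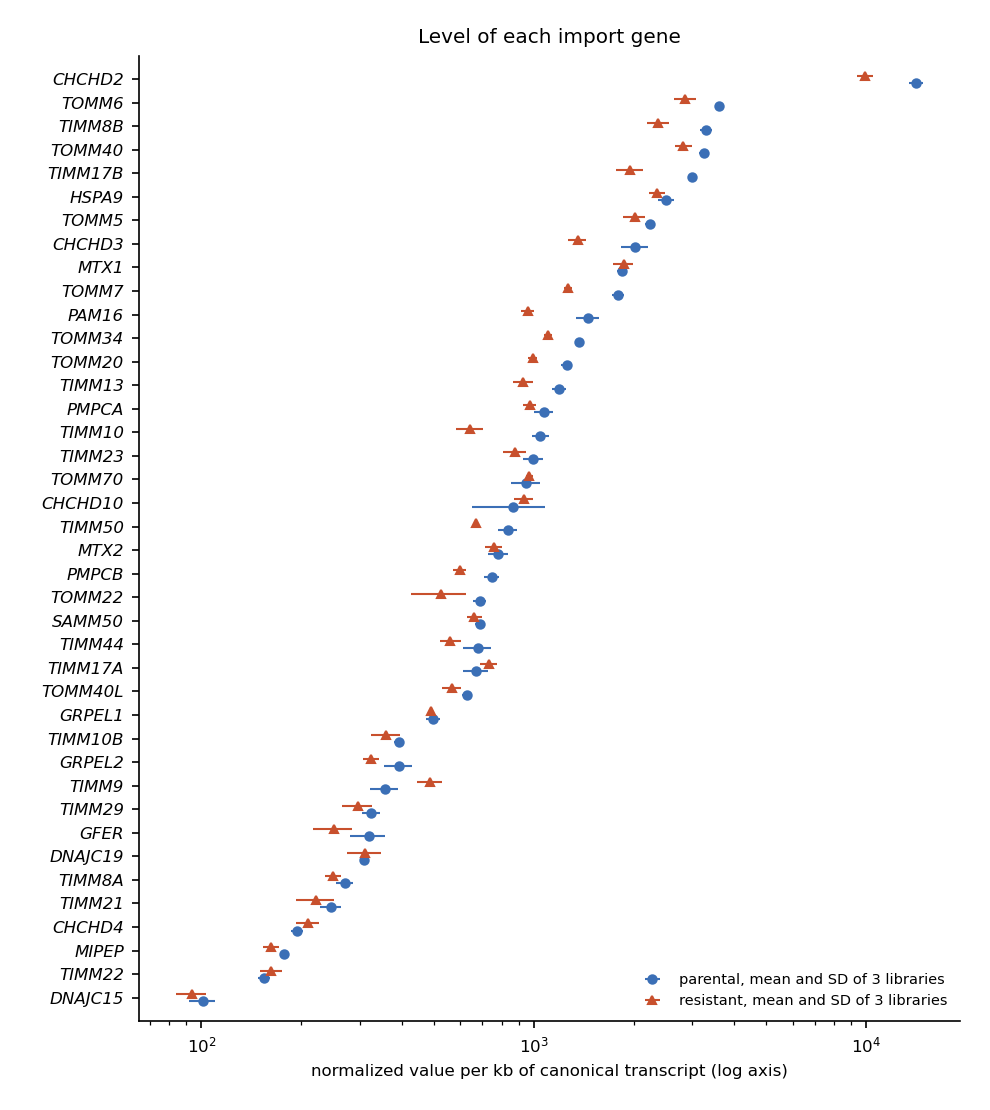
Normalized value per kb of canonical transcript of each import gene on a log axis, as mean and SD of 3 parental (circles) and 3 resistant libraries (triangles), in the order of the parental values. *CHCHD2* stands above all others in both groups, and *TIMM9* is the called gene whose triangle lies right of its circle.

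The clients and helpers of the import machinery, described here from further lists, moved in both directions. The counts of these and the following lists stand beside 19.8% lower and 17.8% higher among all genes tested. At the levels of the import genes 25.8% were lower and 17.5% higher. Of 17 proteins with paired cysteines that CHCHD4 imports, 11 were lower (64.7%) and none was higher, with a median log2 fold change of -0.31. The smallest p-values belonged to *CHCHD5*, at 180.1 ± 32.8 in parental and 39.6 ± 13.8 in resistant cells (SD, n = 3), to *NDUFS5*, a subunit of complex I, with -0.44, and to *TRIAP1*, with -0.63. Most genes of this list have transcripts of up to 1000 bases, such as *COX17* with 426, *NDUFS5* with 495 and *UQCRH* with 537 bases. Among all tested coding genes of up to 1000 bases 39.4% were lower, and the part of length in this count was not tested. Of 31 listed genes of the SLC25 carrier family, many but not all of which TIM22 inserts, 8 were lower (25.8%), 1 was higher and 22 were not called. *SLC25A3*, the phosphate carrier, fell, at 8613 ± 304 in parental and 5144 ± 299.7 in resistant cells (SD, n = 3), a difference of -0.74 in log2 (SE 0.06, limma adjusted p = 1.7e-05). *SLC25A6*, an ADP/ATP carrier, and *SLC25A39* fell as well, with -0.58 and -0.45.

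Among 12 insertases and other import factors 4 were lower and 2 higher. *OXA1L*, which inserts proteins from the matrix side, rose, at 1595 ± 25.9 in parental and 2357 ± 112 in resistant cells (SD, n = 3), a difference of 0.56 in log2 (SE 0.07, limma adjusted p = 0.000153). *ROMO1* and *MTCH1*, an outer membrane insertase, fell, with -0.52 and -0.31. Of 12 genes of cytosolic delivery 4 were lower and 2 higher, among them *NACA* and *DNAJB1* with -0.49 and -0.43, and *HSP90AA1* with 0.35. Of 6 matrix chaperones *HSPD1*, the folding chamber, and its lid *HSPE1* fell, with -0.32 and -0.69, and *CLPX* rose, with 0.52. Of 12 matrix and inner membrane proteases 5 were lower and 1 higher, led by *LONP1* and *PITRM1*, which degrades cut presequences, with -0.37 and -0.34, and by *CLPP* with -0.26.

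The regulators of mitochondrial biogenesis moved both ways. Of 15 listed, 14 were tested, and 4 were lower and 2 higher. *NRF1* fell, at 897 ± 19.9 in parental and 646 ± 25.2 in resistant cells (SD, n = 3), a difference of -0.47 in log2 (SE 0.08, limma adjusted p = 0.00145). *ESRRA*, an orphan receptor that drives respiratory genes, fell, at 2186 ± 143 in parental and 1553 ± 46.7 in resistant cells (SD, n = 3), a difference of -0.49 in log2 (SE 0.07, limma adjusted p = 0.000575). *GABPB1* and *TFAM* were lower too, with -0.40 and -0.21, while *GABPA*, the DNA-binding partner of *GABPB1*, had 0.15 and was not called. *PPARGC1B*, a coactivator, rose, at 861 ± 97.7 in parental and 1483 ± 97.8 in resistant cells (SD, n = 3), a difference of 0.79 in log2 (SE 0.10, limma adjusted p = 0.000211), and *YY1* rose by 0.25. *MYCN* was high in both groups, at 37473 ± 951 in parental and 36152 ± 1042 in resistant cells (SD, n = 3), a log2 difference of -0.05 (limma adjusted p = 0.497).

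Of 9 genes of the response to failed import and related stress, 5 were lower and 1 higher. *DDIT3*, a stress factor, fell, at 259 ± 15.4 in parental and 118 ± 16.4 in resistant cells (SD, n = 3), a difference of -1.14 in log2 (SE 0.16, limma adjusted p = 0.000356). *ASNS*, asparagine synthetase, was lower with -0.50, as was *EIF2AK1*, the kinase that senses mitochondrial stress through DELE1, with -0.41. The transcription factors *ATF4* and *ATF5* were lower too, with -0.42 and -0.70 (limma adjusted p = 0.000861 and 0.00482). *DELE1* itself had -0.02 and was not called. The higher gene was *TRIB3*, with 0.46. The 13 mRNAs of the mitochondrial genome, which are made inside the organelle and need no import, all had log2 fold changes below 0, with a median of -0.22, but only *MT-ND1* was called. Their share of the library total was 1.46%, 2.55% and 2.63% in parental and 2.09%, 1.38% and 2.45% in resistant libraries, so that the groups overlapped.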

How the data were processed

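RNA-seq of 3 parental and 3 onvansertib-resistant H526 libraries was used. The authors trimmed reads with Trimmomatic 0.38, quantified gene counts with RSEM 1.3.1 on GRCh38 with the Gencode v43 annotation, and deposited them after DESeq2 normalization (version 1.30.0 in the submitters' processing notes) as a signal per gene and library. The strand setting is not given in the sources used here. Of 62757 rows, 47 second copies of pseudoautosomal genes, with the same values as the first, were dropped. Symbols, positions and canonical transcript lengths came from Gencode v44 by identifier without version, for 62639 of 62710 rows.

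Depth was the summed value divided by the value of 1 read, taken as the commonest step of the low values. Between 43.1% and 59.8% of values under 20 reads lay within 0.05 of a whole read, so whole reads could not be recovered and a count model was not used. The limit of detection was 3 reads, which covers counting error only.

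Genes with a mean of at least 10 entered limma 3.58.1 in R 4.3.3 as log2(value + 1) (lmFit, eBayes with trend, condition as the only term, two-sided, Benjamini-Hochberg over 16347 genes). The fold changes understate those of low genes. The steps were also run on simulated data. These had far fewer changed genes than here and no shift by transcript length or position, so they do not bear on such shifts. Pair ratios were compared by exact permutation. Promoters were from RefSeq. The 40 genes, the lists and the tests were chosen with earlier results of these data known. By the rule for named genes, those called, past 0.5 in log2 fold change or in a pair were described singly. The other import genes were given with their role, so that all 40 are accounted for, and up to 3 genes of another list with the smallest p, or any regulator, could be named. The fit was repeated with a pseudocount of 0.1 or 10, without the filter, with a higher minimum of 50, with median centring, quantile normalization, no trend, each library left out, and 50 neighbouring genes as reference. Length classes were added after the data were seen. Python 3.11.15, numpy 2.4.6, pandas 2.3.3 and matplotlib 3.10.9 were used.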

Additional observations from a re-analysis of the deposited data

How the results depend on the processing

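Under 13 refits (other pseudocounts, filters, scalings, no trend, and each library left out) between 13 and 18 of the 40 genes were lower and 1 was higher, and 14 of the 18 called genes kept their call in all 13. The exceptions were *TOMM22*, *TOMM40*, *TIMM44* and *GRPEL2*, and *GFER* was gained in 4. The median log2 fold change of the 40 genes ranged from -0.203 to -0.123 with single libraries left out. It was -0.21 relative to 50 neighbours and -0.10 relative to coding genes of the same length class. The number of differentially expressed genes ranged from 4784 to 6228. The cause of these shifts was not tested. Signs turned only for uncalled genes and 1 ratio. With quantile normalization *GRPEL1* (0.0257), *HSPA9* (0.0538) and *MTX2* (0.00439) turned. With single libraries left out, the log2 fold changes that turned ranged from -0.0159 to 0.113 for *TOMM70*, -0.0855 to 0.0781 for *DNAJC19*, -0.0506 to 0.0172 for *GRPEL1*, -0.0169 to 0.0759 for *MTX1*, -0.0915 to 0.00645 for *MTX2* and -0.0881 to 0.270 for *CHCHD10*, and the difference in the log2 ratio of *MTX1* to *MTX2* ranged from -0.0225 to 0.128. A depth of 22390983 to 28510615 reads does not limit these genes, whose lowest mean over the 6 libraries was 289, but 3 libraries a group limit every interval given. No paired analysis was possible because the groups share no replicate number and the labels do not say which libraries, if any, were harvested at the same time, so that a pairing of harvests is unknown.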
